A study of Mus musculus with 20 samples.

Results

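The 10 genes described here encode cytokines made by effector T cells: Il2, Il3, Il4, Il5, Il13, Csf1, Csf2, Tnf, Lta and Ltb. They were chosen by name and looked up by symbol in each of the tables of gene counts from this study, one for pooled spleen and peripheral lymph nodes (pLNs) and one for mesenteric lymph nodes (mLN). Of the 10 genes, 9 have a row in each table, among 16740 genes in spleen and pLNs and 16784 in mLN, and all 9 were tested in both. Il3 was not analysed here. Cells were sorted from 14 weeks old C57BL/6 mice as CD4+YFP+ cells (CD4+Foxp3+ Treg cells) and CD4+YFP- cells (CD4+Foxp3- T cells). WT mice carried the Foxp3 Cre allele alone, a knock-in that places YFP and Cre under control of Foxp3, and DKO mice carried it together with both floxed genes, so that their genotype was Tet2/3 fl/fl Foxp3 Cre and TET2 and TET3 were removed in cells that express Cre. All groups therefore share the Foxp3 Cre allele, and Cre acts in Foxp3-expressing cells, so that the Foxp3- cells of a DKO mouse are not targeted unless they once expressed Foxp3. Each group had 2 libraries in spleen and pLNs and 3 libraries in mLN, 20 in all, which the study describes as biological replicates. It also describes the DKO littermates of the spleen and pLN experiment as differing in severity of disease, and the labels do not say which library came from which mouse.

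As background, TET proteins oxidise 5-methylcytosine and thereby promote loss of DNA methylation, and cytokine genes of T cells are well known for losing methylation as naive cells become effector cells. Naive CD4+ T cells make mainly IL-2 after their antigen receptor is engaged, whereas differentiated cells add lineage cytokines such as IL-4, IL-5 and IL-13 in Th2 cells. Treg cells express Foxp3, do not normally make IL-2, consume it through the high-affinity IL-2 receptor, and restrain the cytokine output of the cells around them. Tnf, Lta and Ltb belong to the TNF superfamily. TNF and lymphotoxin alpha are secreted, and lymphotoxin beta anchors lymphotoxin alpha at the cell surface in a complex that shapes lymphoid tissue. Csf1, Csf2 and Il3 encode growth factors for myeloid cells.

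Depth was 13525932 to 15253141 counted reads per library in the first tissue and 9998478 to 15449158 in mLN. Levels below are CPM, reads scaled to the library total after TMM normalisation, and 3 reads in a library, which correspond to 0.172 to 0.299 CPM, are taken as the limit of detection. The limit covers counting error only. T cell markers (Cd4, Cd3e, Cd3d, Cd3g, Cd28 and Lck) summed to 4053 to 6806 CPM, and Foxp3 was at 153 to 419 CPM in the Treg libraries against at most 2.75 CPM in the Foxp3- libraries. Whole-gene counts of Tet2 and Tet3 take in exons that the deletions leave, and so they did not serve as a check of genotype: Tet2 ranged from 10.4 to 10.8 CPM in WT and from 7.69 to 12.8 CPM in DKO Treg cells of mLN, and in spleen and pLNs from 1.11 to 2.08 CPM in WT and 2.05 to 8.01 CPM in DKO Treg cells. Tet3 was at 30.6 to 31.0 CPM in WT and 38.1 to 61.0 CPM in DKO Treg cells of spleen and pLNs, and at 69.0 to 86.5 and 48.4 to 73.3 CPM in those of mLN. Replicates differed more in DKO than in WT, with a chi-square per gene between a pair of libraries of 15.8 to 92.8 in DKO groups and 3.83 to 8.89 in WT groups, and the DKO Foxp3- libraries differed most. The 2 of spleen and pLNs had a chi-square per gene of 92.8, and in mLN replicate 2 was the most distant, at 72.5 and 43.7 from the others, against 23.6 between replicates 1 and 3. Where leaving out 1 library changed a call between genotypes for one of the 9 cytokine genes, the value without it is given. In sorted bulk samples, fewer cells that make a cytokine and less RNA per cell cannot be told apart.

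Of the 9 tested genes, 4 changed in DKO Treg cells of mLN by the criteria used throughout (edgeR quasi-likelihood test, Benjamini-Hochberg adjusted p of at most 0.05 over all genes and a fold change of at least 1.5). Csf1 rose and Lta, Ltb and Tnf fell, where 11.9% of all genes tested passed these criteria, 8.5% of them upward and 3.43% downward. In Foxp3- cells of mLN, 1 of the 9 passed, Csf1, which rose, against 3.43% of all genes called and 3.12% called upward. For spleen and pLNs, 0 of the 9 genes passed in DKO Treg cells by edgeR (1.74% of all genes did), 2 of the 9 had an unadjusted p under 0.05 (20.4% of all genes did), and DESeq2 with the same 4 groups also called 0, whereas with only the 2 Treg groups in the fit edgeR called Csf1 and Lta and DESeq2 called Csf1. Among the Foxp3- cells of that tissue, Csf1 was the 1 gene of 9 that passed and rose, with 0.819% of all genes called and 0.77% called upward. The DKO and WT libraries of 1 cell type serve in 1 comparison each, so that the genotype comparisons share no libraries, but the 4 groups share one estimate of the spread, and the comparisons of cell types use the same libraries again. Among the members with a mean of at least 1 CPM, the median log2 difference between DKO and WT was -0.83 for 5 genes in mLN Treg cells, where the median of all genes was 0.00. It was -0.02 for the same 5 genes in mLN Foxp3- cells, and for 6 genes in spleen and pLNs it was 0.01 in Treg and -0.18 in Foxp3- cells. The 6 genes include Il2, which had a mean under the detection limit in Treg cells of both genotypes (0.112 and 0.165 CPM). No direction is read from their Treg median. Over all 9 tested genes, some near or under that limit, the medians were -1.46 in Treg and -0.29 in Foxp3- cells of mLN. In spleen and pLNs they were -0.06 and 0.04.

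The genes Tnf, Lta and Ltb lie side by side on chromosome 17. In NCBIM37, the assembly of mm9, Ltb spans chr17:35331384-35333265 on the plus strand, Tnf chr17:35336326-35338952 and Lta chr17:35340110-35342296 on the minus strand, with 3061 bases between Ltb and Tnf and 1158 bases between Tnf and Lta. Their promoters are shown with that of Csf1, because these are the 4 genes whose transcripts changed in DKO Treg cells of mLN. Each sequence runs from 250 bases before to 50 bases after the start in the RefSeq promoter table of GRCm38 and matches NCBIM37 exactly at 1 place, given in brackets with its strand. Capitals mark matches to the core letters bound by NFAT factors (GGAAA, or TTTCC on the other strand) and, on either strand, to a form of the NF-kB motif that reads GGG, any 2 bases and then TTTCC.
Ltb (chr17:35331202-35331501, plus): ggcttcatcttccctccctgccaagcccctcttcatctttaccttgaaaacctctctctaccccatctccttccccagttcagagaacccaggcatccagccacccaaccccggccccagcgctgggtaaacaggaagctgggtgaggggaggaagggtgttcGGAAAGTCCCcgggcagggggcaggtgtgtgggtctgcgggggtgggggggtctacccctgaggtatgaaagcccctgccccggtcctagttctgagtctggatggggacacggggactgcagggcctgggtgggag
Tnf (chr17:35338903-35339202, minus): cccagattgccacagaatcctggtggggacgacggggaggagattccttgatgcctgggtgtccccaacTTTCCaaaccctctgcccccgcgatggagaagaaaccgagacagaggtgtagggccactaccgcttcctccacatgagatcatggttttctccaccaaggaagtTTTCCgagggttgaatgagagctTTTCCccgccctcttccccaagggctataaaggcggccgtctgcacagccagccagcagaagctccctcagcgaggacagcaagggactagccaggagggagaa
Lta (chr17:35342247-35342546, minus): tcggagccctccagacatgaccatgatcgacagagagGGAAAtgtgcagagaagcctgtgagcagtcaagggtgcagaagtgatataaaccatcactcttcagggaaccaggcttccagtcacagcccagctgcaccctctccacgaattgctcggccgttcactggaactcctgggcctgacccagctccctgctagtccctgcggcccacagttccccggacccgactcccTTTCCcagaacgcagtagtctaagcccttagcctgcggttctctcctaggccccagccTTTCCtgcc
Csf1 (chr3:107563338-107563637, minus): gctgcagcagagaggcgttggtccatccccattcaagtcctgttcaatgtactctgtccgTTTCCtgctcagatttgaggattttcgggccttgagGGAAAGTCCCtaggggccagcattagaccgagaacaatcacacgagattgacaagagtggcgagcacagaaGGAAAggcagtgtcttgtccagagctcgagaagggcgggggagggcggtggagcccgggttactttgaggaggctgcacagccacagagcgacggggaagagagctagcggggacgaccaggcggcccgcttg
GGAAA occurs 3 times in the window of Tnf, Lta and Csf1 and 1 time in that of Ltb. Of 32851 promoters of the same length, 61.3% hold it. The NF-kB form occurs on the minus strand, where it reads GGAAAGTCCC on the printed strand, at -87 from the start of Ltb and at -154 from the start of Csf1, overlapping a GGAAA match in each, and 1.63% of all promoters hold it. The AP-1 motif TGANTCA, held by 7.81% of promoters, was not found in the windows of these 4 genes. The window of Csf1 holds 16 CpG dinucleotides, that of Tnf 11, that of Lta 10 and that of Ltb 7, while the median over all promoters is 7 and the quartiles are 3 and 20. A match is a description of the letters and not evidence of binding, and methylation was not measured in these files.

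Lta, which encodes lymphotoxin alpha, measured 39.1, 49.4 and 51.7 CPM across the WT Treg libraries of mLN and 23.0, 9.34 and 18.8 CPM across the DKO ones. Every DKO library lay below every WT library, as was the case for 19.2% of all genes. The means were 46.7 ± 6.71 and 17 ± 6.99 CPM (SD, n = 3 each), and the log2 difference was -1.46 (SE 0.30, adjusted p = 0.00485), a 2.75-fold lower level. Lta remained called when any 1 of the 6 libraries was left out, at log2 differences of -1.74 to -1.16. Among Foxp3- cells of mLN, the WT libraries held Lta at 21.4, 23.7 and 23.4 CPM and the DKO libraries at 17.8, 7.60 and 12.5 CPM. The groups again did not overlap (9.74% of all genes were lower without overlap), but the log2 difference of -0.86 (SE 0.30) had an adjusted p of 0.142. Without DKO Foxp3- replicate 1, the DKO library nearest to WT, it was -1.20 with an adjusted p of 0.0223.

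From spleen and pLNs, WT Treg libraries held Lta at 50.6 and 53.9 CPM and DKO Treg libraries at 27.4 and 37.5 CPM, a log2 difference of -0.69 (SE 0.34, adjusted p = 0.281, and 0.0455 with only these 2 groups in the edgeR fit). Both DKO libraries were below both WT libraries, as for 26.1% of all genes. Foxp3- cells had 22.5 and 17.2 CPM when WT and 7.41 and 20.6 CPM when DKO, with overlapping groups (-0.51, SE 0.35, adjusted p = 0.622). Here DKO replicate 1 carried the lower level: without it the log2 difference was 0.05, and without DKO replicate 2 it was -1.42 with an adjusted p of 0.00141.

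Ltb encodes the membrane-anchored partner of lymphotoxin alpha. The mLN levels were 644, 678 and 641 CPM for WT Treg cells and 453, 430.2 and 409 CPM for DKO Treg cells. The DKO libraries were all lower, as for 19.2% of all genes, and the spread within each group was small (655 ± 20.5 and 431 ± 22.1 CPM, SD, n = 3). The log2 difference was -0.60 (SE 0.09, adjusted p = 0.00062), a 1.52-fold lower level. This size lies close to the required fold change of 1.5: without WT Treg replicate 2 or DKO Treg replicate 3 it was -0.58 and -0.57, and Ltb was then not called, although its adjusted p stayed between 0.00153 and 0.0055 in each of the 6 leave-one-out fits. Foxp3- cells of mLN had Ltb at 663, 621 and 621 CPM when WT and at 588, 504 and 471 CPM when DKO. The DKO libraries were again lower without overlap, as for 9.74% of all genes. The log2 difference was -0.29 (SE 0.09, adjusted p = 0.0888).

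Treg cells from spleen and pLNs had Ltb at 1006 and 1088 CPM when WT and at 564 and 851 CPM when DKO (log2 difference -0.57, SE 0.34, adjusted p = 0.381). Their Foxp3- counterparts had 814 and 837 CPM when WT and 299.7 and 771 CPM when DKO (-0.62, SE 0.34, adjusted p = 0.491). All 4 DKO libraries were thus below the WT libraries of their cell type, which held for 26.1% of all genes in Treg and 21.1% in Foxp3- cells. DKO Foxp3- replicate 1 was the lowest of the 8 libraries for both Ltb and Lta. The difference of Ltb in Foxp3- cells rested on that library: without it the log2 difference was -0.10 (adjusted p = 1.0), and without DKO Foxp3- replicate 2 it was -1.46 (adjusted p = 0.000602).

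Tnf, the gene of the inflammatory cytokine TNF, had levels of 9.78, 16.1 and 15.9 CPM among WT Treg libraries of mLN and of 7.64, 6.90 and 9.06 CPM among DKO Treg libraries. The lowest WT library and the highest DKO library were close, but the groups did not overlap (19.2% of all genes were lower without overlap). The log2 difference was -0.83 (SE 0.23, adjusted p = 0.0237), or 1.77-fold lower. The call was lost without WT Treg replicate 2 (adjusted p = 0.102), WT Treg replicate 3 (0.0955), DKO Treg replicate 1 (0.0612) or DKO Treg replicate 2 (0.0854). The Foxp3- levels of mLN were 10.2, 11.1 and 12.8 CPM for WT and 11.2, 14.1 and 8.13 CPM for DKO mice, and these groups overlapped (-0.02, SE 0.23, adjusted p = 1.0).

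For Tnf in spleen and pLNs, WT Treg cells had 11.8 and 12.5 CPM against 14.5 and 11.1 CPM for DKO Treg cells (0.08, SE 0.22, adjusted p = 0.883). WT Foxp3- cells had 10.1 and 12 CPM against 15.5 and 16.0 CPM for DKO Foxp3- cells (0.51, SE 0.22, adjusted p = 0.340). Both DKO Foxp3- libraries were above both WT libraries, as for 20.8% of all genes, but the difference did not pass the test.

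**Figure D1:**
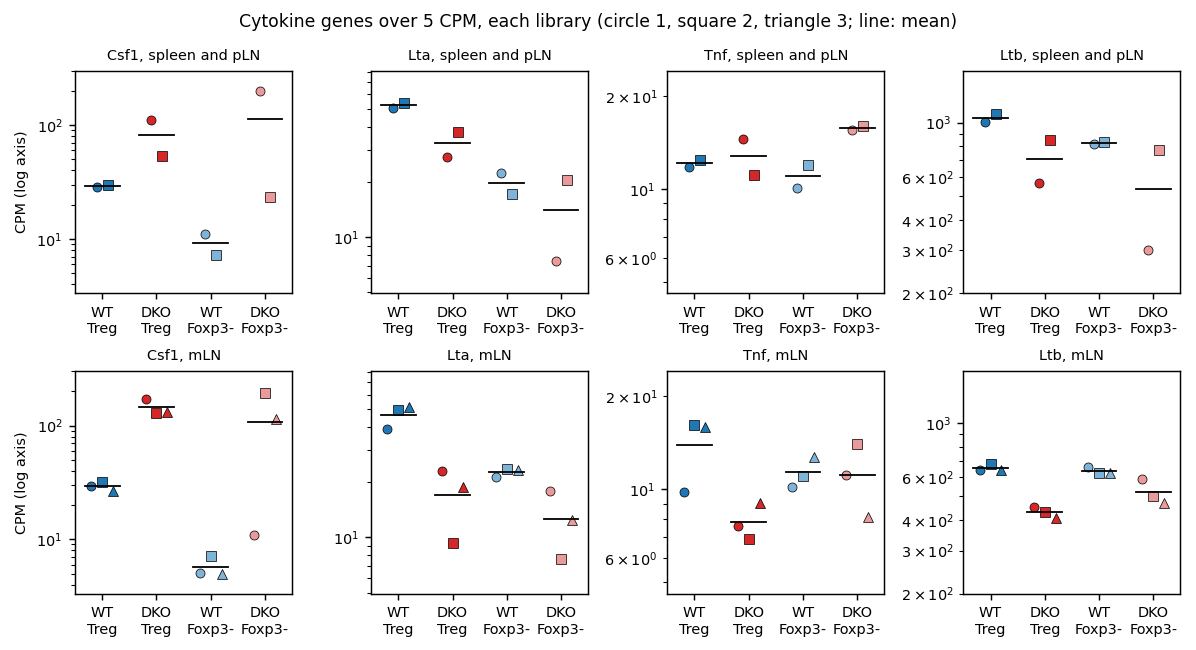
CPM of Csf1, Lta, Tnf and Ltb in every library (log axis), by group, in spleen and pLNs and in mLN. Circles, squares and triangles are replicates 1, 2 and 3 and lines are group means; Csf1 of DKO Treg cells in mLN sits at 129.9 to 173 CPM against 26.4 to 32.2 CPM in WT, and Lta at 9.34 to 23.0 against 39.1 to 51.7 CPM.

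Some markers of other cells also differed between WT and DKO. The 2 CD8 markers (Cd8a and Cd8b1) summed to 16.0 to 20.8 CPM in WT and 2.95 to 3.94 CPM in DKO Treg cells of mLN, and to 21.5 to 23.3 and 5.0 to 10.1 CPM in the Foxp3- cells. Cd8b1 made up nearly all of these sums and fell in both cell types (log2 difference -2.45, adjusted p = 7.05e-05 in Treg and -1.48, adjusted p = 0.0049 in Foxp3- cells), while Cd8a was at 0.579 CPM or less in each of the 12 libraries. Among B cell markers, Cd79b, a chain of the B cell receptor complex, was at 26.4 to 34.2 CPM in WT Treg cells of mLN, 5.45 to 16.4 CPM in DKO Treg cells, 1.87 to 1.90 CPM in WT Foxp3- cells and 1.42 to 10.6 CPM in DKO Foxp3- cells. Cd79a was at 0.393 to 1.1 CPM in WT and 0.382 to 3.45 CPM in DKO Treg cells, and Ms4a1 was at 0.503 CPM or less in each of the 12 libraries. Pax5, which defines B cells, was at 0 in every WT Treg library of mLN and at 0.216 to 2.29 CPM in DKO Treg cells. In DKO Treg cells of spleen and pLNs Ms4a1 was called higher (means of 0.143 CPM in WT and 3.44 CPM in DKO, adjusted p = 0.0376). Cd79b was called lower there (27.5 and 6.46 CPM, adjusted p = 0.00246). The part of these transcripts in the levels of Lta, Ltb and Tnf was not tested.

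The genes around this locus were counted in the same way. Of 14 other genes within 100000 bases of them that were tested in mLN, 1 was called in DKO Treg cells, Ly6g5b, which fell (log2 difference -1.93, SE 0.53, adjusted p = 0.0216), beside 11.9% of all genes called. The 14 genes had a median log2 difference of -0.10, between -1.93 and 0.85. With spleen and pLNs, 1 of 12 was called in DKO Treg cells, Prrc2a, which rose (1.23, SE 0.28, adjusted p = 0.0478), beside 1.74% of all genes called.

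**Figure D2:**
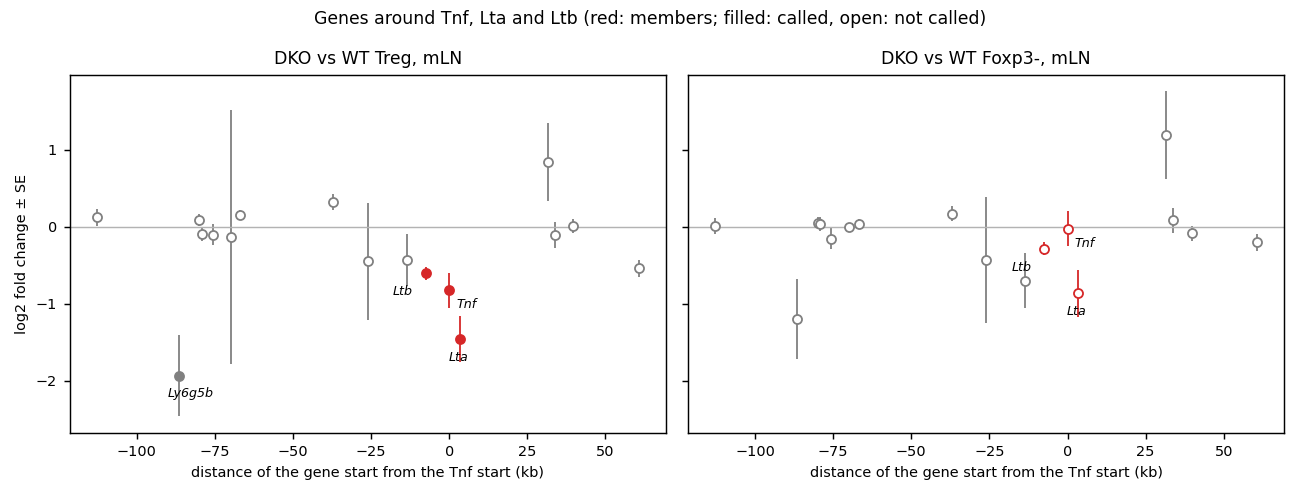
Log2 difference between DKO and WT (points, with bars of 1 SE) in mLN Treg and Foxp3- cells for genes around Tnf, by the distance of each gene's start from that of Tnf in kilobases. In Treg cells Lta (-1.46), Tnf (-0.83) and Ltb (-0.60) lie below 0, while the median of the 14 neighbours is -0.10.

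Csf1 encodes macrophage colony stimulating factor, which supports the survival and growth of monocytes and macrophages. It lies at chr3:107543966-107563387 on the minus strand. WT Treg libraries of mLN held 29.5, 32.2 and 26.4 CPM of Csf1 and DKO Treg libraries 173, 129.9 and 132 CPM. The DKO libraries lay far above the WT libraries (21.3% of all genes were higher without overlap), at 145 ± 24.1 against 29.3 ± 2.91 CPM (SD, n = 3), and the log2 difference was 2.3 (SE 0.62, adjusted p = 0.0198), or 4.93-fold. Without any 1 of the WT Treg libraries the adjusted p rose to between 0.0645 and 0.0801, with log2 differences of 2.23 to 2.37, and without 1 DKO library it stayed between 0.0342 and 0.0479. With a robust prior in edgeR the call was lost as well (adjusted p = 0.0697), while 7 of the 8 other settings kept it.

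WT Foxp3- libraries of mLN held 5.02, 7.09 and 4.99 CPM of Csf1 and DKO Foxp3- libraries 10.9, 194 and 114 CPM. Each DKO library was above each WT library, as for 11.1% of all genes, but DKO replicate 1 was far below the other DKO libraries. The log2 difference was 4.21 (SE 0.71, adjusted p = 0.00897), or 18.5-fold, and with only these 2 groups in the edgeR fit the call was lost (adjusted p = 0.107). It was 4.74 without DKO Foxp3- replicate 1 (adjusted p = 1.4e-07) and 3.44 without replicate 2 (adjusted p = 0.00604). Without any 1 of the WT Foxp3- libraries the adjusted p lay between 0.0541 and 0.0625.

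In the other tissue, spleen and pLNs, the DKO libraries had a wide spread of Csf1. The WT Treg libraries held 28.8 and 29.6 CPM and the DKO Treg libraries 111 and 53.5 CPM (log2 difference 1.49, SE 0.66, adjusted p = 0.229), which did not pass the test but did with only these 2 groups in the fit (adjusted p = 0.00937 in edgeR and 0.000245 in DESeq2). The WT Foxp3- libraries held 11.2 and 7.24 CPM and the DKO Foxp3- libraries 201 and 23.4 CPM, and this difference was called (3.61, SE 0.73, adjusted p = 0.0465, 12.2-fold). Both DKO libraries were above both WT libraries in either cell type, as for 28.1% of all genes in Treg and 20.8% in Foxp3- cells. The call in Foxp3- cells was lost under 5 of 8 other settings (adjusted p of 0.0837 with the replicate block, 0.278 under filterByExpr, 0.413 with a robust prior, and 0.574 in edgeR and 0.181 in DESeq2 with 2 groups). It also depended on single libraries: without DKO replicate 1, which held 201 CPM, the log2 difference was 1.34 (adjusted p = 0.152), without DKO replicate 2 it was 4.45 (adjusted p = 1.25e-06), and without 1 WT library it was 3.33 to 3.96 with an adjusted p of 0.454 to 0.796. Where an arm is left with 1 library, that library is assumed to vary like those of the other groups.

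Several markers of other cells also differed between WT and DKO libraries. Of the 7 myeloid markers tested, the summed level in mLN was 1.41 to 3.37 CPM in WT and 3.51 to 44.0 CPM in DKO Treg cells, and 5.87 to 7.23 CPM in WT and 6.39 to 25.4 CPM in DKO Foxp3- cells. Among them, Csf1r, which encodes the receptor of the Csf1 product and marks macrophages, was at 0.216 CPM or less in each of the 12 mLN libraries. Itgam, a myeloid integrin, rose in DKO Treg cells of mLN (adjusted p = 0.00678), from 0.822, 0.496 and 0.689 CPM to 2.98, 17.5 and 5.87 CPM. Fcer1g was called there too (adjusted p = 0.0211), with 36.8 CPM in DKO Treg replicate 3 and 0.0822 CPM or less in the other 5 Treg libraries. In spleen and pLNs the myeloid sum was 1.46 to 2.71 CPM in WT and 9.76 to 24.2 CPM in DKO Treg cells, and 6.08 to 8.6 CPM in WT and 18.0 to 20 CPM in DKO Foxp3- cells. Of the 5 stroma and endothelium markers, which belong to cells that also make Csf1, the sum was 138 to 172 CPM in WT and 108 to 147 CPM in DKO Treg cells of mLN, with Pecam1 making up nearly all of it. Col1a1 was at 0.956 CPM or less in each of the 20 libraries, while Pdgfra, at 0 in every WT library, reached 17.8 CPM in DKO Foxp3- replicate 1 of spleen and pLNs and was called higher in DKO Treg cells of mLN (adjusted p = 0.029), at 6.34, 0.216 and 0.336 CPM. The 4 NK markers summed to 18.7 to 23.0 CPM in WT and 109 to 190 CPM in DKO Treg cells of mLN, and to 42.5 to 54.2 and 102 to 154 CPM in the Foxp3- cells. Klrb1c and Nkg7 were called higher in both cell types, whereas Ncr1 was at 0.976 CPM or less in each of the 12 mLN libraries and Eomes was at 24.3 to 35.3 CPM in WT and 5.42 to 22.9 CPM in DKO Foxp3- cells. In spleen and pLNs Ncr1 was called higher in DKO Treg cells (means of 0.0732 CPM in WT and 2.39 CPM in DKO, adjusted p = 0.0122). It was also called higher in DKO Foxp3- cells there (0.469 and 3.96 CPM, adjusted p = 0.0438). Klrb1c was called higher in DKO Treg cells there (6.68 and 98.2 CPM, adjusted p = 0.000612), and 0 of the 4 NK markers were called lower. The 5 Treg markers (Foxp3, Il2ra, Ctla4, Ikzf2 and Tnfrsf18) summed to 226 to 707 CPM in DKO Foxp3- cells of spleen and pLNs against 199 to 220 CPM in WT, and to 177 to 348 CPM against 133 to 137 CPM in mLN. The 8 mast cell and basophil markers summed to 2.73 to 4.63 CPM in WT and 6.00 to 64.1 CPM in DKO Foxp3- cells of spleen and pLNs, and Kit among them was at 62.7 CPM in DKO Foxp3- replicate 1 there, the library with the highest Csf1, and at 5.48 CPM in replicate 2. The 5 of them with a row in mLN summed to 3.45 to 3.89 CPM in WT and 3.02 to 21.8 CPM in DKO Treg cells. Kit was called higher in these DKO Treg cells (means of 2.47 and 13.4 CPM, adjusted p = 0.0269), with overlapping groups. The 4 plasma cell markers summed to 153 to 159 CPM in WT and 124 to 579 CPM in DKO Treg cells of mLN, and to 69.6 to 82.6 and 85.8 to 649 CPM in the Foxp3- cells. Among them Jchain was called higher in DKO Treg cells of mLN (adjusted p = 0.0404), at 2.14, 412 and 8.89 CPM, Prdm1 was called lower there (-1.33, adjusted p = 0.0092), and Igj, as the other table names it, rose in spleen and pLNs, from 3.55 to 4.53 CPM to 15.4 to 88.4 CPM in Treg cells (adjusted p = 0.0432) and from 2.73 to 2.81 CPM to 23.6 to 119 CPM in Foxp3- cells (adjusted p = 0.0302). The 3 neutrophil markers of spleen and pLNs were at 0 in WT Treg cells and summed to 1.09 to 5.55 CPM in DKO Treg cells, where Mpo was called higher (adjusted p = 0.0196). The part of these transcripts in the level of Csf1 was not tested.

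Csf2 encodes GM-CSF, a growth factor for granulocytes and macrophages made by activated T cells. It lies at chr11:54060773-54063169 on the minus strand, and the gene of IL-3, Il3, at chr11:54078805-54080779 in the same cluster. Csf2 had few reads. For spleen and pLNs these were 1 and 4 reads in WT Treg cells, 1 and 1 in DKO Treg cells, 8 and 7 in WT Foxp3- cells (0.608 and 0.563 CPM) and 18 and 15 in DKO Foxp3- cells (1.13 and 1.11 CPM). Both Foxp3- groups were above the detection limit. Both DKO Foxp3- libraries were above both WT libraries, as for 20.8% of all genes. The log2 difference of 0.93 (SE 0.72) had an adjusted p of 0.674. The mLN libraries had 0, 0 and 5 Csf2 reads in WT Treg cells, 14, 1 and 1 in DKO Treg cells, 2, 1 and 1 in WT Foxp3- cells and 1, 3 and 2 in DKO Foxp3- cells. A single DKO Treg library held most of the reads of its group, and no difference between the mLN groups was detectable at this depth.

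Il2 encodes IL-2, the growth factor of T cells. It lies at chr3:37019445-37024881 on the minus strand, and its reads were found mainly in Foxp3- cells. Il2 of spleen and pLNs had 2 and 1 reads in WT Treg cells, 1 and 4 in DKO Treg cells, 29 and 30 in WT Foxp3- cells (2.20 and 2.41 CPM) and 21 and 43 in DKO Foxp3- cells (1.32 and 3.19 CPM). The level in Treg cells was thus at or near the detection limit in both genotypes, and the DKO Foxp3- libraries lay on either side of the WT libraries (log2 difference -0.04, SE 0.61). Summed over libraries, the level in Foxp3- cells was 21.0 times that in Treg cells in WT (95% exact interval 6.85 to 105, 59 against 3 reads) and 14.0 times in DKO (5.69 to 44.5, 64 against 5 reads). These intervals cover counting error only.

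Il2 of mLN had 2, 1 and 2 reads in WT Treg cells and 1, 0 and 0 in DKO Treg cells. In Foxp3- cells it had 5, 11 and 15 reads in WT (0.426, 0.743 and 1.5 CPM) and 3, 5 and 14 reads in DKO (0.266, 0.352 and 1.24 CPM). The ranges of the Foxp3- groups overlapped (-0.51, SE 0.67, adjusted p = 0.725), and in Treg cells both genotypes were at or under the detection limit.

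Il4, Il5 and Il13 encode the Th2 cytokines, of which IL-4 drives class switching to IgE, IL-5 the growth of eosinophils and IL-13 the production of mucus and tissue fibrosis. They lie in one cluster on chromosome 11, Il4 at chr11:53416484-53432171 and Il13 at chr11:53444826-53448204 on the minus strand and Il5 at chr11:53534296-53538608 on the plus strand, with Rad50 between Il13 and Il5. The end of Il4 overlaps that of Kif3a on the other strand, and the counting was strand-specific. Il4 had reads in every library. Its mLN levels were 2.14, 2.32 and 1.67 CPM for WT Treg cells and 0.229, 0.287 and 1.43 CPM for DKO Treg cells. The DKO libraries were lower without overlap, as for 19.2% of all genes, with replicate 3 near the WT level. The difference did not pass the test (log2 difference -1.68, SE 0.65, adjusted p = 0.0909). Summed over libraries it was 71 reads in WT against 24 in DKO, a ratio of 3.35 with an exact counting interval of 2.08 to 5.56. Without DKO Treg replicate 3 the log2 difference was -2.93 with an adjusted p of 0.0119.

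The Foxp3- cells of mLN had Il4 at 1.19, 2.3 and 1.99 CPM when WT and at 0.71, 3.45 and 2.03 CPM when DKO, with overlapping groups (0.19, SE 0.59, adjusted p = 0.936). Treg cells from spleen and pLNs had 2.31 and 1.95 CPM when WT and 3.09 and 0.956 CPM when DKO (-0.06, SE 0.55, adjusted p = 1.0). The Foxp3- levels there were 4.33 and 2.57 CPM for WT and 2.07 and 3.48 CPM for DKO mice (-0.32, SE 0.54, adjusted p = 0.867). In these groups the levels of Il4 overlapped between the genotypes.

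Il13 reads in mLN came mainly from WT Foxp3- cells, with 4, 31 and 8 reads (0.34, 2.09 and 0.798 CPM), against 1, 1 and 3 reads in DKO Foxp3- cells. All 3 DKO libraries were at or under the detection limit and below the WT libraries, as for 9.74% of all genes. Of the WT libraries, 1 held most of the WT reads. The sum was 43 reads in WT and 5 in DKO, a ratio of 8.65 (exact counting interval 3.43 to 28.0), and the log2 difference of -2.91 (SE 0.81) had an adjusted p of 0.0760. Il13 had 3, 3 and 1 reads in WT Treg cells and 0, 0 and 0 in DKO Treg cells of mLN, both at or under the limit, so that no fold is given. The spleen and pLN libraries had 5 and 5 Il13 reads in WT Treg cells (0.384 and 0.348 CPM), 1 and 0 in DKO Treg cells, 7 and 5 in WT Foxp3- cells and 6 and 8 in DKO Foxp3- cells. The WT Treg level was 11.7 times the DKO Treg level (10 against 1 read, exact counting interval 1.67 to 509), with an adjusted p of 0.160.

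Il5 had the fewest reads. It had 0 reads in each of the 4 Treg libraries of spleen and pLNs, 1 and 0 in WT Foxp3- cells and 3 and 0 in DKO Foxp3- cells, so no difference was detectable at this depth. The mLN counts were 0, 1 and 0 reads in WT Treg cells, 0 in each DKO Treg library, 1, 14 and 6 in WT Foxp3- cells (0.0851, 0.945 and 0.598 CPM) and 0, 7 and 0 in DKO Foxp3- cells. The groups of Foxp3- cells overlapped (-1.56, SE 1.12, adjusted p = 0.503). WT Foxp3- replicate 2 of mLN held the most reads of both Il5 and Il13 among the 12 libraries.

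**Figure D3:**
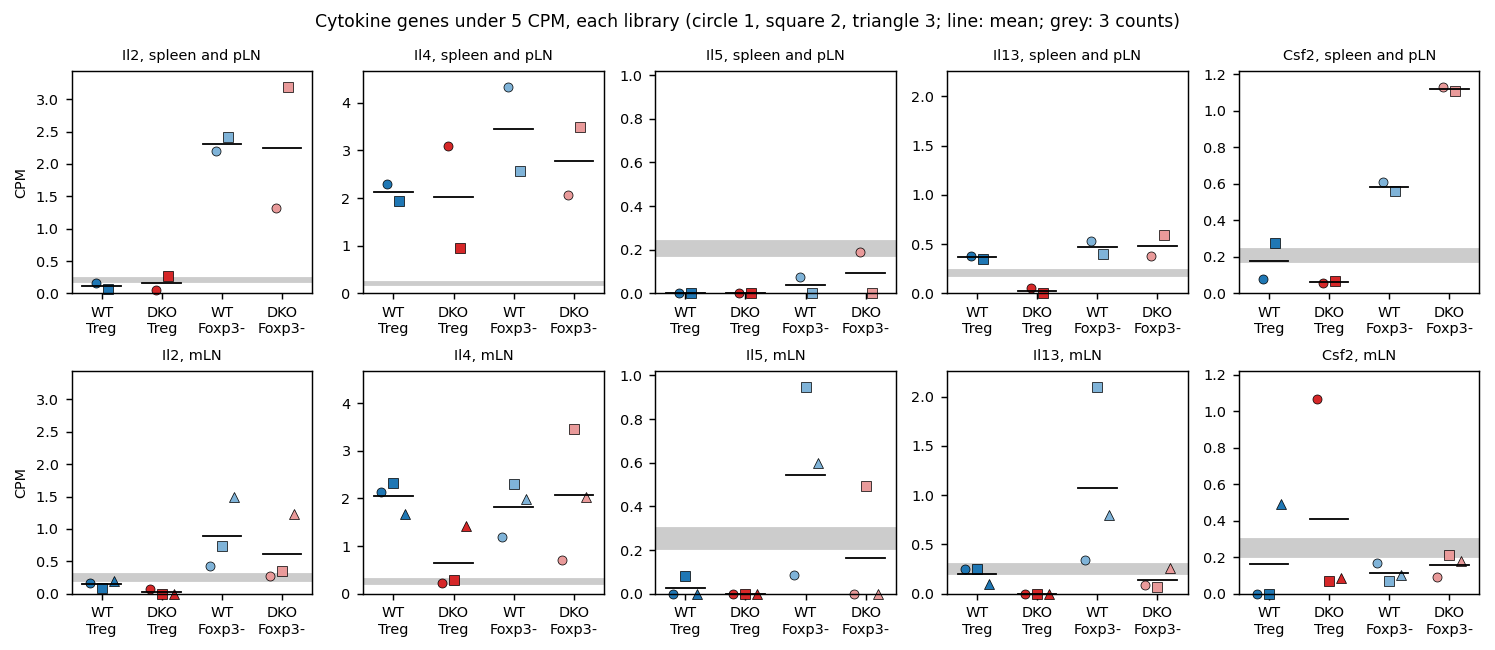
CPM of Il2, Il4, Il5, Il13 and Csf2 in every library (linear axis), by group, in spleen and pLNs and in mLN. Symbols are replicates, lines are group means and the grey band is the level of 3 reads; Il2 reaches 2.20 to 2.41 CPM in WT Foxp3- cells of spleen and pLNs, while the Treg libraries lie in or next to the band.

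Between cell types of WT mice, Treg cells had more Lta than Foxp3- cells in both tissues. The levels given above correspond to a log2 difference in spleen and pLNs of 1.4 (SE 0.35, adjusted p = 0.0462, 2.63-fold), and in mLN of 1.03 (SE 0.29, adjusted p = 0.0308, 2.04-fold). In mLN, Treg and Foxp3- libraries of the same genotype and number deviated together and were treated as pairs in a second fit, in which the difference of Lta was 1.02 with an adjusted p of 0.000221. In spleen and pLNs the call of Lta was lost whichever 1 of the 4 libraries was left out, at log2 differences of 1.22 to 1.60. In mLN, unpaired, its adjusted p was 0.047 without WT Treg replicate 1 and 0.0872 to 0.109 without any other. The log2 difference there stayed at 0.95 to 1.14. Lta was called under 5 of 8 other settings in spleen and pLNs and 7 of 8 in mLN, among them the fits with only the WT groups. Csf1 was higher in WT Treg than in WT Foxp3- cells of mLN (2.35, SE 0.70, adjusted p = 0.0375, 5.09-fold). It was called under 6 of 8 other settings, among them both fits with only these 2 groups. With pairs the adjusted p was 0.0722, and without any 1 of the 6 libraries it was 0.0782 to 0.117. The Csf1 difference of spleen and pLNs, 1.66 (SE 0.71), had an adjusted p of 0.311. With only these 2 groups in the fit it was called (adjusted p = 2.56e-26 in edgeR and 1.53e-12 in DESeq2). Ltb and Tnf were not called between WT Treg and Foxp3- cells in either tissue, with log2 differences of 0.04 to 0.34. For Ltb in spleen and pLNs the log2 difference was 0.34 (SE 0.34, adjusted p = 0.811). With only these 2 groups in the edgeR fit the adjusted p was 5.68e-06, at a size under the required fold change.

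Il2 was lower in Treg than in Foxp3- cells. The test passed in WT cells of spleen and pLNs (adjusted p = 0.0114) and in DKO cells of spleen and pLNs (0.0175) and of mLN (0.0160), and in WT cells of mLN it had an adjusted p of 0.0552. The sums in mLN were 31 against 5 reads in WT, a ratio of 5.83 (exact counting interval 2.25 to 19.2), and 22 against 1 read in DKO, a ratio of 23.3 (3.76 to 960). In WT of spleen and pLNs the call was lost without any 1 library (adjusted p of 0.0872 to 0.227), in DKO of spleen and pLNs without DKO Treg replicate 1 (0.199), and in DKO of mLN without DKO Foxp3- replicate 3 (0.0749), DKO Treg replicate 2 (0.0637) or DKO Treg replicate 3 (0.0512).

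In WT, 2 of the 9 genes were called between the cell types in spleen and pLNs (Lta higher, Il2 lower in Treg cells, against 4.0% of all genes, 2.48% higher and 1.52% lower) and 2 in mLN (Lta and Csf1 higher, against 10.1%, of which 6.91% higher). In DKO mice, Il2 and Csf2 were called lower in Treg cells of spleen and pLNs, against 3.77% of all genes called and 1.61% called lower, and Il2 in mLN, against 11.2% and 3.49%. Csf2 had 2 reads in DKO Treg cells and 33 in DKO Foxp3- cells of spleen and pLNs, a ratio of 18.0 (exact counting interval 4.61 to 155, adjusted p = 0.0333). That call was lost without DKO Treg replicate 1 (adjusted p = 0.221) or DKO Treg replicate 2 (0.0951). Lta was not called between the DKO cell types (1.22, SE 0.35, adjusted p = 0.0895 in spleen and pLNs and 0.44, SE 0.31, adjusted p = 0.375 in mLN). Without DKO Foxp3- replicate 2 of spleen and pLNs, Lta (2.13, adjusted p = 0.000124) and Ltb (1.24, adjusted p = 0.00339) were both called higher in DKO Treg cells, and without replicate 1 they were at 0.65 and -0.13 and were not called. With libraries of mLN paired by number, Lta was 0.42 (SE 0.10, adjusted p = 0.019), under the required fold change. It was higher in Treg cells in 3 of 3 pairs, a pairing that the labels do not give. Csf1 was not called between them either (-0.45, SE 0.64, adjusted p = 0.799 in spleen and pLNs and 0.44, SE 0.58, adjusted p = 0.645 in mLN). In spleen and pLNs it was called in opposite directions without single libraries, at 1.81 (adjusted p = 0.00403) without DKO Foxp3- replicate 1 and at -1.29 (adjusted p = 0.0151) without DKO Foxp3- replicate 2. Il4 of mLN was not called between the DKO cell types (-1.70, SE 0.65, adjusted p = 0.0906), but it was without DKO Foxp3- replicate 1 (-2.14, adjusted p = 0.0263) or DKO Treg replicate 3 (-2.96, adjusted p = 0.011). Ltb of mLN was lower in DKO Treg than in DKO Foxp3- cells (-0.27, SE 0.09, adjusted p = 0.0434), which is under the required fold change.

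Whether the effect of genotype differed between the cell types was tested by the interaction, in which 0 of the 9 genes passed in edgeR in either tissue (0.28% of all genes did in mLN and 0.00611% in spleen and pLNs) and DESeq2 also called 0. At an unadjusted p under 0.05 there were 2 members in mLN (10.9% of all genes) and 2 in spleen and pLNs (5.53%). In mLN the interaction, as the DKO effect in Treg cells minus that in Foxp3- cells on the log2 scale, was -1.91 for Csf1 (SE 0.90, adjusted p = 0.472), -0.80 for Tnf (SE 0.32, adjusted p = 0.371), -0.59 for Lta (SE 0.42, adjusted p = 0.672) and -0.32 for Ltb (SE 0.12, adjusted p = 0.343). Changes called in one cell type and not in the other were therefore not shown to differ between them. Without DKO Foxp3- replicate 1, the interaction of Csf1 in mLN was -2.46 with an adjusted p of 0.00231.

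**Figure D4:**
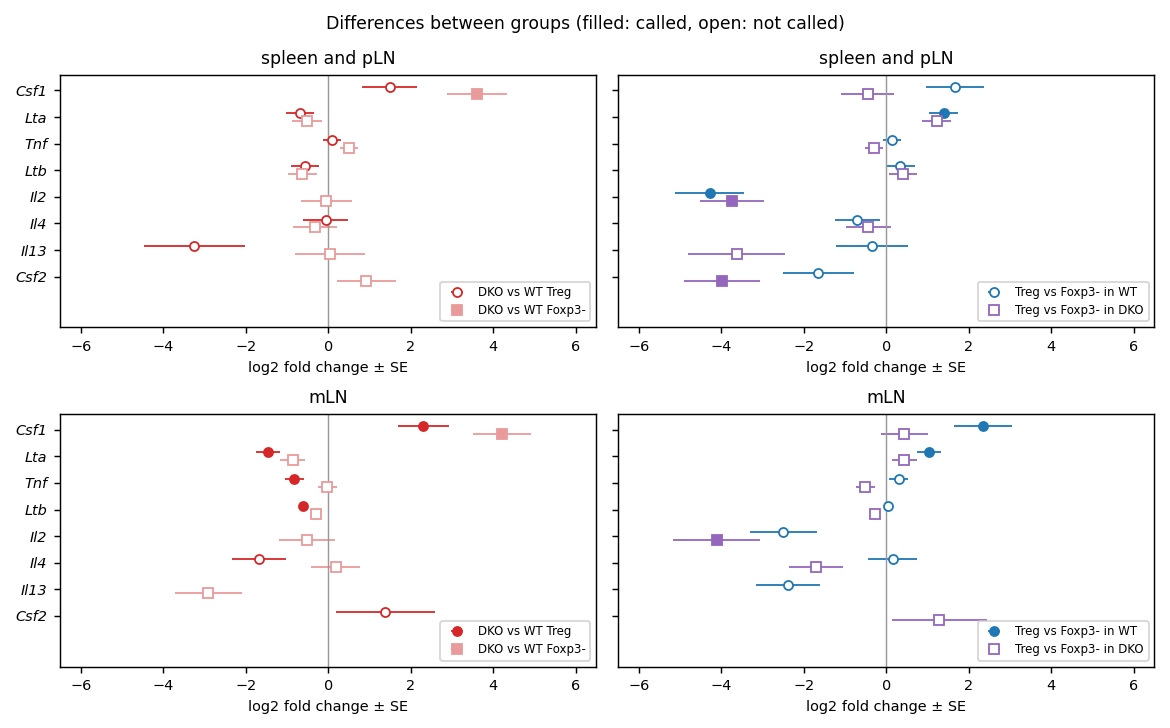
Log2 difference of each gene in the 4 comparisons of each tissue, with bars of 1 SE; filled points passed the test and open points did not, and comparisons at or under the detection limit are not drawn. In DKO Treg cells of mLN, Csf1 (2.3) lies above 0 and Lta (-1.46), Tnf (-0.83) and Ltb (-0.60) below, all filled.

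Levels of different genes were compared on the deposited TPM, which take gene length into account. In WT Treg cells of mLN the order was Ltb (1091 TPM), Lta (61.9 TPM), Tnf (15.5 TPM) and Csf1 (12.1 TPM), which overlapped, and Il4 (4.41 TPM), with the other genes under 0.3 TPM. In DKO Treg cells Csf1 stood second, at 67.8 TPM, between Ltb (812 TPM) and Lta (25.6 TPM), followed by Tnf (9.81 TPM) and Il4 (1.57 TPM), and the ranges of the first 4 did not overlap. In WT Foxp3- cells of mLN Csf1, at 2.17 TPM, did not differ beyond the spread from Il4 (3.65 TPM) and Il2 (1.59 TPM), below Ltb (971 TPM), Lta (27.7 TPM) and Tnf (11.5 TPM). In DKO Foxp3- cells the mean of Csf1 was 43.7 TPM, and its range overlapped those of Lta (15.8 TPM) and Tnf (11.8 TPM).

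The order in WT Treg cells of spleen and pLNs was Ltb (1401 TPM), Lta (55.4 TPM), Tnf (11.0 TPM), Csf1 (9.68 TPM) and Il4 (3.70 TPM), each apart from the next. In DKO Treg cells Csf1 (36.0 TPM) overlapped Lta (42.8 TPM), below Ltb (1171 TPM) and above Tnf (14.9 TPM). In WT Foxp3- cells Il2 (3.42 TPM) overlapped Csf1 (2.93 TPM), below Il4 (5.77 TPM). Ltb was first in all 8 groups on this scale.

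**Figure D5:**
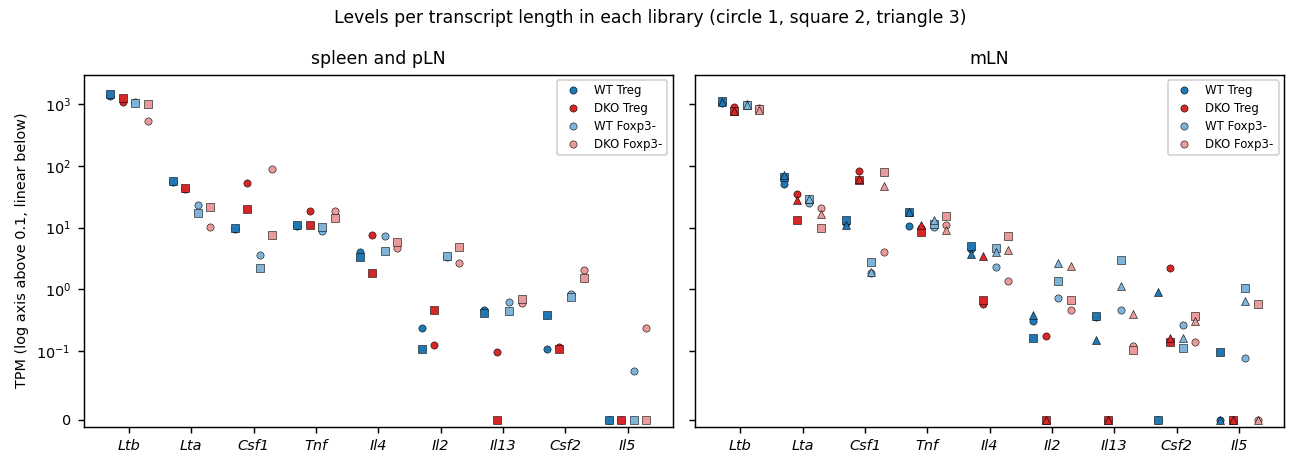
TPM of the 9 genes in every library, by group and tissue, on an axis that is logarithmic above 0.1 TPM and linear below. Ltb is highest throughout, and Csf1 of mLN Treg cells moves from a mean of 12.1 TPM in WT to 67.8 TPM in DKO.

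Of the receptors of these cytokines, 15 of 16 were tested. In DKO Treg cells of mLN 3 rose and 4 fell, with a median log2 difference of -0.17, where 8.5% of all genes rose and 3.43% fell. Il3ra (1.20, adjusted p = 0.00414) and Csf2ra (1.36, adjusted p = 0.00909), the ligand-binding chains for IL-3 and GM-CSF, rose together with Tnfrsf14 (0.60, adjusted p = 0.00299), a receptor that also binds lymphotoxin alpha. Il13ra1, a chain of the IL-13 receptor, fell by 3.23 on the log2 scale (adjusted p = 0.00041), from 3.70, 3.56 and 4.43 CPM to 0.458, 0.575 and 0.168 CPM. Il2ra, the alpha chain of the IL-2 receptor (-1.12, adjusted p = 0.00516), Il4ra (-1.0, adjusted p = 0.0208) and Tnfrsf1a (-0.71, adjusted p = 0.0349) fell as well. Il13ra1 also fell in spleen and pLNs, in Treg cells (-3.94, adjusted p = 0.0026) and in Foxp3- cells (-3.0, adjusted p = 0.03). Csf1r rose in DKO Treg cells of spleen and pLNs (adjusted p = 0.041), from 0.0769 and 0.0696 CPM to 2.98 and 0.887 CPM, beside the rise in myeloid markers given above, and its WT level was under 3 reads. In DKO Foxp3- cells of mLN 0 of 15 receptors passed in edgeR (3.43% of all genes did), 8 had an unadjusted p under 0.05 (18.7% of all genes) and DESeq2 called 2.

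Among other T cell cytokines and TNF ligands, 8 of 22 rose and 1 fell in DKO Treg cells of mLN (8.5% and 3.43% of all genes), with a median log2 difference of 1.37, and 4 of 22 rose in Foxp3- cells (3.12% of all genes). Lif rose in both, with 2.89 (adjusted p = 0.000593) in Treg and 2.45 (adjusted p = 0.0121) in Foxp3- cells. In the Foxp3- cells it was at 2.47, 3.58 and 4.69 CPM for WT and at 6.39, 31.0 and 20.3 CPM for DKO mice, and DKO replicate 1 was the lowest of the DKO libraries, as it was for Csf1. Il21, a cytokine of follicular helper T cells whose gene lies 96800 bases from Il2, rose in Treg cells (2.66, adjusted p = 0.014) and Foxp3- cells (2.60, adjusted p = 0.0308), and Areg, an EGF family growth factor, rose in Treg cells (2.11, adjusted p = 0.0111) and in Foxp3- cells (adjusted p = 0.0356), where WT libraries held 0.203 CPM or less and DKO libraries 0.177, 1.90 and 1.59 CPM. The chemokine genes Ccl3 (adjusted p = 0.00546) and Ccl4 (adjusted p = 0.00611) rose in Treg cells, to 3.31 to 32.7 CPM and 3.23 to 18.2 CPM in DKO, from WT levels of at most 0.0984 and 0.331 CPM, close to or under 3 reads. Osm fell in Treg cells (-0.85, adjusted p = 0.00356), and Tnfsf8 rose in Foxp3- cells (1.69, adjusted p = 0.0216). Of 23 such genes in spleen and pLNs, where 1.74% of all genes were called in Treg and 0.819% in Foxp3- cells, 4 rose in DKO Treg cells, Ccl3 (from 0.154 and 0.418 CPM to 16.7 and 2.80 CPM, adjusted p = 0.0131), Ccl4 (3.34, adjusted p = 0.0221), Tnfsf4 (1.89, adjusted p = 0.0359) and Xcl1 (1.81, adjusted p = 0.0424). In DKO Foxp3- cells 2 rose, Lif (4.94, adjusted p = 0.04, from 2.35 and 2.41 CPM to 138 and 8.45 CPM) and Areg (adjusted p = 0.0299), the latter from 0.076 and 0 CPM to 6.22 and 1.19 CPM. DKO replicate 1 held the higher level of both, and their values without it were not examined.

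Of 30 transcription factors that act at cytokine loci, 4 rose and 2 fell in DKO Treg cells of mLN, beside 8.5% and 3.43% of all genes. Bhlhe40, a factor needed for GM-CSF production by T helper cells, rose in Treg cells (2.17, adjusted p = 0.00225) and in Foxp3- cells (2.82, adjusted p = 0.0049), from 15.4, 15.9 and 15.7 CPM to 42.0, 167 and 122 CPM in the latter. Runx3 (0.74, adjusted p = 0.00058), Fosl2 (1.47, adjusted p = 0.00121) and Batf (0.98, adjusted p = 0.00207) rose in Treg cells and Ikzf3 fell (-0.99, adjusted p = 0.00088), as did Prdm1, from 36.6, 34.7 and 36.0 CPM to 9.70, 15.3 and 17.6 CPM. Irf4 (0.95, adjusted p = 0.0403) and Maf (1.55, adjusted p = 0.0451) rose in Foxp3- cells, where 3 of 30 rose. Of these factors, 0 of 30 passed by edgeR in either cell type of spleen and pLNs, with 8 in Treg and 11 in Foxp3- cells at an unadjusted p under 0.05 (20.4% and 12.9% of all genes), and DESeq2 called 2 in each. Of 14 genes induced by engagement of the antigen receptor, 3 rose in DKO Treg cells of mLN, Nr4a2 (1.85, adjusted p = 0.00244), Tnfrsf9 (0.96, adjusted p = 0.0124) and Icos (1.21, adjusted p = 0.0409), and 2 in Foxp3- cells, Tnfrsf4 (1.99, adjusted p = 0.00877) and Icos (2.04, adjusted p = 0.0153), beside 8.5% and 3.12% of all genes called higher. Myc rose in Treg cells of spleen and pLNs (0.86, adjusted p = 0.0274), and 0 of 14 passed in the Foxp3- cells by edgeR, with 7 at an unadjusted p under 0.05 (12.9% of all genes) and 2 called by DESeq2.

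Between the cell types of WT mice, the receptor genes that passed were higher in Treg cells, 4 of 15 in spleen and pLNs (2.48% of all genes were) and 5 of 15 in mLN (6.91%). Il2ra was the clearest of them (4.45, adjusted p = 3.14e-07 in spleen and pLNs and 5.55, adjusted p = 1.32e-07 in mLN). Tnfrsf1b, a receptor for TNF and lymphotoxin alpha, was also higher in Treg cells, by 1.86 (adjusted p = 0.000113) and 2.21 (adjusted p = 9.1e-06). Il13ra1 was higher in WT Treg than WT Foxp3- cells by 1.92 (adjusted p = 0.0276) and 2.36 (adjusted p = 0.00159). Cd40lg, the ligand of CD40, was lower in Treg cells, with log2 differences of -1.95 (adjusted p = 2.57e-05) in spleen and pLNs and -1.85 (adjusted p = 1.68e-05) in mLN.

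Of the 24 genes within 100000 bases of a member, Kif3a (0.65, SE 0.16, adjusted p = 0.0136), which overlaps the end of Il4, and Il21 rose and Ly6g5b fell in DKO Treg cells of mLN, a share close to the 11.9% of all genes called. Kif3a was at 7.64, 7.94 and 8.16 CPM in WT and at 12.8, 11.5 and 13.0 CPM in DKO Treg cells. Rad50, between Il13 and Il5, had a log2 difference of 0.26 (SE 0.12, adjusted p = 0.158) there and 0.01 in Foxp3- cells.

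Over the 12 libraries of mLN, the genes whose pattern was most like that of each member were found among 11175 genes by the root mean square difference of log2 CPM after centring each gene. Dnase1l3 (0.484) was nearest to Csf1. Dtx4 (0.209) and Irf8 (0.225) were nearest to Lta, Itgb2 (0.0699) and Ss18 (0.0950) to Ltb, Ms4a6d (0.224) and Sept9 (0.225) to Tnf, and Pde11a (0.60) and Akr1c13 (0.601) to Il4. As an example, the group means of Dtx4 were 54.3, 20.4, 32.6 and 19.8 CPM in WT Treg, DKO Treg, WT Foxp3- and DKO Foxp3- cells, where those of Lta were 46.7, 17, 22.9 and 12.6 CPM. The 12 libraries share their groups, so that any gene with the same differences between groups comes out near.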

How the data were processed

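RNA was measured in 20 sorted samples, 8 from spleen and pLNs and 12 from mLN, grouped by the labels. The authors made stranded mRNA libraries (TruSeq), aligned single-end reads to mm9 with TopHat2 2.1.1, reporting no more than 1 location for a read, and obtained counts of RefSeq genes by strand-specific featureCounts (Subread 1.4.3-p1), which gave the deposited raw counts. The deposited TPM values were computed by the authors in a way not given in the sources used here. All columns were used.

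Each table was fitted on its own. Genes with at least 1 count in total (16357 and 16784) were TMM-normalised and tested with edgeR 4.0.16 (quasi-likelihood, limma 3.58.1, R 4.3.3), with the 4 groups in one fit, and called when the p adjusted by Benjamini-Hochberg did not exceed 0.05 and the change reached 1.5-fold, or at the adjusted p alone for the interaction. The SE of a log2 difference is that difference divided by the square root of its F statistic. The common biological coefficient of variation was 21.6% and 17.7%. P-values measure the spread between these libraries. Exact 95% intervals of read ratios cover counting error only. The fit was tested on simulated data.

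Members, gene lists and the rule for named genes were chosen with earlier results of these data known. The rule names the 10 members in every comparison, up to 4 called genes with the smallest adjusted p per list, list genes called in both cell types of mLN, neighbours within 100000 bases that were called or lie between members, and the 2 genes most alike in pattern. Some items that the rule or the lists hold are not reported here. Coordinates are from NCBIM37 with GENCODE M1, and promoters from RefSeq (GRCm38).

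In mLN, deviations from the group means of Treg and Foxp3- libraries with the same genotype and number correlated in all 6 pairs (r of 0.171 to 0.183 in WT and 0.110 to 0.390 in DKO, over 11175 genes, threshold 0.1). A mismatched DKO pair, Treg replicate 3 with Foxp3- replicate 1, also passed it (r = 0.160), and the labels give no pairing. For comparisons of cell types and the interaction, the pairs by number entered a second fit as a replicate block. For comparisons of genotype the block was the replicate number over all 4 groups, which joins libraries of different mice. In mLN, WT and DKO libraries of 1 cell type and number had r of -0.0170 to 0.114. Alternatives were these blocks, DESeq2 1.42.0 (4 or 2 groups), edgeR with 2 groups, DESeq2 size factors, filterByExpr, a robust prior, no fold change minimum and leaving out each library.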

Additional observations from a re-analysis of the deposited data

Results flagged for a closer look

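For Csf2 in spleen and pLNs, the order of the scaled levels put both DKO Treg libraries below WT and both DKO Foxp3- libraries above WT. Of all genes, 26.1% were lower without overlap in Treg and 20.8% higher in Foxp3- cells. In Treg cells the fitted log2 difference was -1.41, but the reads were 1 and 1 in DKO against 1 and 4 in WT, so that all 4 libraries were near or under the limit of 3 reads and 1 WT library held the same single read as the DKO libraries. No direction is read from it. In Foxp3- cells the log2 difference was 0.93 (SE 0.72, edgeR adjusted p = 0.674), with 18 and 15 reads in DKO against 8 and 7 in WT. The interaction, which rests on the same Treg reads, had an adjusted p of 0.953.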

How the results depend on the processing

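Of the 9 members, DKO Treg cells of spleen and pLNs had 0 called, 2 (Csf1 and Lta) in edgeR with 2 groups and 1 (Csf1) in DESeq2 with 2 groups. The 1 call in DKO Foxp3- cells of that tissue, Csf1, was lost (0 called) under filterByExpr, a robust prior, the replicate block, and edgeR and DESeq2 with 2 groups, and 0 to 3 members were called without 1 library. Between WT cell types there, 2 were called, 1 under filterByExpr, a robust prior or the replicate block, 4 in edgeR with 2 groups and 0 without any 1 library. Between DKO cell types there, 2 were called, 1 under filterByExpr, the replicate block and DESeq2 with 4 groups, 0 in edgeR and DESeq2 with 2 groups, and 0 to 5 without 1 library. In the interaction, 0 to 1 were called without 1 library in either tissue, Csf1 without DKO Foxp3- replicate 2 of spleen and pLNs or without DKO Foxp3- replicate 1 of mLN.

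In mLN, the 4 calls in DKO Treg cells were 3 with a robust prior, which lost Csf1, and 1 to 4 without 1 library. The call in DKO Foxp3- cells was 0 in edgeR with 2 groups and 0 to 2 without 1 library. Between WT cell types, 2 were called, 0 with a robust prior, 1 with the replicate block, 5 in edgeR and DESeq2 with 2 groups, and 0 to 1 (Lta or Il13) without 1 library. Between DKO cell types, 1 was called, 2 with no fold change minimum, 0 under filterByExpr (which left out Il2) and with 2 groups in either tool, and 0 to 2 without 1 library. The cause of these changes was not tested.

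Directions reversed for differences that had not passed, of which Csf1 between DKO cell types of spleen and pLNs was called both ways without 1 library. Csf1 between DKO cell types was 0.12 with the replicate block in spleen and pLNs, and -1.29 to 1.81 there and -0.12 to 1.18 in mLN without 1 library. Without 1 library, Lta in DKO against WT Foxp3- cells of spleen and pLNs was -1.42 to 0.0492, Ltb between DKO cell types there -0.13 to 1.24, Tnf in DKO against WT Treg cells there -0.13 to 0.25, and Tnf in DKO against WT Foxp3- cells of mLN -0.22 to 0.16. Of the values for single genes under the alternatives, 503 kept direction and call, 62 lost the call, 18 gained it and 8 reversed.

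Counts over all genes moved by more than 1.5 times in every comparison. In spleen and pLNs they were 285 in DKO Treg cells (24 under filterByExpr to 1256 in edgeR with 2 groups), 134 in DKO Foxp3- cells (1 under filterByExpr to 363 in DESeq2 with 4 groups), 654 between WT cell types (360 with the replicate block to 2060 in edgeR with 2 groups), 617 between DKO cell types (down to 190 in edgeR with 2 groups) and 1 in the interaction (0 to 11). In mLN they were 2001 in DKO Treg cells (up to 3249 with no fold change minimum), 575 in DKO Foxp3- cells (2 in edgeR with 2 groups to 924 in DESeq2 with 4 groups), 1687 between WT cell types (up to 2544 in edgeR with 2 groups), 1885 between DKO cell types (906 in edgeR with 2 groups to 2956 with no fold change minimum) and 47 in the interaction (up to 402 in DESeq2 with 4 groups and 118 with the replicate block). Without 1 library they ranged, in the same order, over 4 to 1696, 1 to 2751, 144 to 198, 185 to 1586 and 0 to 674 in spleen and pLNs, and over 1325 to 1946, 57 to 1453, 1149 to 1263, 1520 to 2934 and 9 to 462 in mLN, and the shares of all genes given beside the members rest on these counts. The widest counts in spleen and pLNs came without DKO Treg replicate 2 (1696) and without DKO Foxp3- replicate 2 (2751 and 674). The replicate numbers of spleen and pLNs form too few pairs to be read as pairing. With replicate number as the block, Csf1 in DKO Foxp3- cells of that tissue was 3.26 with an adjusted p of 0.0837. With the block by genotype and number, Lta between WT cell types there was 1.41 (0.0744), and Csf2 between DKO cell types had an adjusted p of 0.0961. All of these calls were thus lost. In mLN the blocks ended the call of Csf1 between WT cell types (2.36, adjusted p = 0.0722) and changed no other call of a member. Reads limited Il5, Il13, Csf2 and Il2, whose groups were often at or under 3 reads per library.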
